A study of Homo sapiens with 6 samples.

Results

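The genes described here encode the machinery of intraflagellar transport and the BBSome, the protein complexes that move cargo along and out of the primary cilium. They are 35 of the 38637 genes of the expression table, all of them protein-coding: 6 subunits of the IFT-A complex, 11 subunits of the IFT-B complex, 10 BBSome genes, 3 genes for small GTPases and an adaptor, and 5 genes for the ciliary motors. The group was built around WDR35, an IFT-A subunit whose lower level in cDCBLD2 knockdown cells led to the choice of this pathway. WDR35 was therefore selected on the values of this comparison and is described without a test. The other 34 genes were chosen by their membership of the same complexes and motors, with earlier results of these data known.

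PolyA-Seq, the sequencing of polyadenylated RNA, was run on HCCLM3-SR cells, a sorafenib-resistant line that the study derived from the human hepatocellular carcinoma (HCC) line HCCLM3 by slowly raising the dose of this multikinase inhibitor. There were 3 cDCBLD2 knockdown libraries, from cells transfected with siRNA against the circular RNA cDCBLD2, and 3 control libraries, from cells transfected with control siRNA. Cells of both groups received 5 µM sorafenib and carried the siRNA for 3 days, so every value is from drug-treated cells of 1 resistant line. The question behind the comparison was which mRNAs depend on cDCBLD2 in resistant cells. The sources do not say whether the replicates were separate cultures, so p-values measure only the spread between these libraries, and in bulk RNA fewer cells of a kind and less RNA per cell cannot be told apart. The circular RNA itself has no row in the table, and its knockdown could not be checked here.

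A primary cilium is an antenna-like projection that many resting cells build on the older of their centrioles and take down again before they divide. Trains of IFT-B and IFT-A particles run along its microtubules, pulled to the tip by kinesin-2 and back to the base by dynein-2. IFT-B holds the train together and carries tubulin, IFT-A serves the return journey and, with the adaptor TULP3, the entry of membrane receptors, and the BBSome takes receptors out again. Hedgehog signaling in vertebrates depends on this traffic. In healthy liver the bile duct cells carry primary cilia and hepatocytes generally do not. RNA levels do not show whether the cells had cilia, and cilia were not measured in these data.

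Promoter sequences are shown first, because cilium genes are known as a group for motifs of the RFX transcription factors. Promoters of 300 bases, from 250 before to 50 after the transcription start, were taken from RefSeq on GRCh38.p14 and were found for 32 of the 35 genes; WDR35, BBS9 and IFT22 had no entry. They were searched on both strands for the X-box consensus, the full motif bound by RFX factors, and for the hexamer GTTGCC, which reads GGCAAC on the other strand and can lie inside a full X-box. The X-box consensus was found in 3 of the 32 genes, or 9.38%, against 1.998% of the tested genes with a promoter entry and 1.31% of all promoters. The 3 windows of 30 bases below have the matched bases in capitals and are written in the direction of the gene.
IFT57 (IFT-B), chr3:108222406-108222435, minus strand: gtccggtgGTCGCCTGGTAACcggtcgtgg
IFT122 (IFT-A), chr3:129440205-129440234, plus strand: catgtacGTTGCCAGGGGTAACgcaggtag
BBIP1 (BBSome), chr10:110919142-110919171, minus strand: tctcaccGTTACCCGGGGCAACagctgagc

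The hexamer GTTGCC was found in 15 of the 32 genes, or 46.9%, against 16.5% of tested genes and 12.2% of all promoters. The windows below are from 4 of them, of which the dynein-2 and IFT-B genes return in the expression results. The match lies close to the start in each, and capitals again mark it. A match says only that these letters are in the window.
DYNC2H1 (dynein-2), chr11:103109363-103109392, plus strand: gtgccccgagagGGCAACgcccaccgcgcg
DYNC2LI1 (dynein-2), chr2:43774019-43774048, plus strand: cgtcgctcccatGGCAACccagaaggcctc
IFT81 (IFT-B), chr12:110124345-110124374, plus strand: ggcctagcaaccGTTGCCaaggagctcgac
TULP3 (adaptor), chr12:2890839-2890868, plus strand: gtgtggaacgcgGTTGCCaggaggcgggac
Genes with and without the hexamer had like values in the expression comparison. The median log2 fold change was -0.23 over the 14 tested genes with it and -0.25 over the 17 without it, WDR35 left out.

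The study placed cDCBLD2 upstream of the microRNA miR-345-5p, so transcripts were also searched for the site of its seed. The mature microRNA and all 5 matched sites are shown with bases 2 to 8 of the microRNA, or the complementary GAGTCAG of the transcript, in capitals.
hsa-miR-345-5p, chr14:100307876-100307897, plus strand, GRCh38.p14: gCUGACUCcuaguccagggcuc
BBS4 3′ UTR, chr15:72737855-72737883, plus strand: tgtatgtagctGAGTCAGcaaggtacatg
IFT43 coding sequence, chr14:75988904-75988932, plus strand: gagctcaacagGAGTCAGcgcaggccgag
BBS2 coding sequence, chr16:56502357-56502385, minus strand: atccgagagctGAGTCAGaagaagcagaa
BBS9 coding sequence, chr7:33604874-33604902, plus strand: ctacaatcccaGAGTCAGacctagaagaa
KIF3B coding sequence, chr20:32309788-32309816, plus strand: tgaaaagctcaGAGTCAGtcagggtggtg
In the transcripts used, those of GENCODE release 29 on GRCh38, GAGTCAG stood in the 3′ UTR of 1 of the 35 genes, BBS4, or 2.86%, against 10.9% of 11770 tested coding genes. It stood in the coding sequence of 4 genes, BBS2, BBS9, IFT43 and KIF3B, or 11.4%, against 12.7%. The WDR35 transcript held none in either part.

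All 35 genes were listed above 0 TPM in every library, where TPM corrects a gene's read number for its length and makes every library sum to 1000000. Most were expressed at low to moderate levels. The mean over the 6 libraries was above 10 TPM for 12 genes, between 1 and 10 TPM for 22 genes and below 1 TPM for IFT74 alone, and the median of the 35 was 7.55 TPM against 14.5 TPM over all 13980 genes tested. TPM carries no depth, so whole reads were rebuilt from how a gene's values relate between libraries, which gave at least 17492330 to 23063898 reads per library. A gene was taken as well measured with a mean of at least 1 TPM and a mean of at least 100 recovered reads per library. By that rule 29 of the 35 were well measured. The others were BBS12, BBS5, IFT74, IFT88, BBS7 and ARL6, with means of 36.0, 45.5, 51.7, 58.3, 75.3 and 91.0 reads, and BBS9 passed just above the limit with 103.8 reads.

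**Figure D1:**
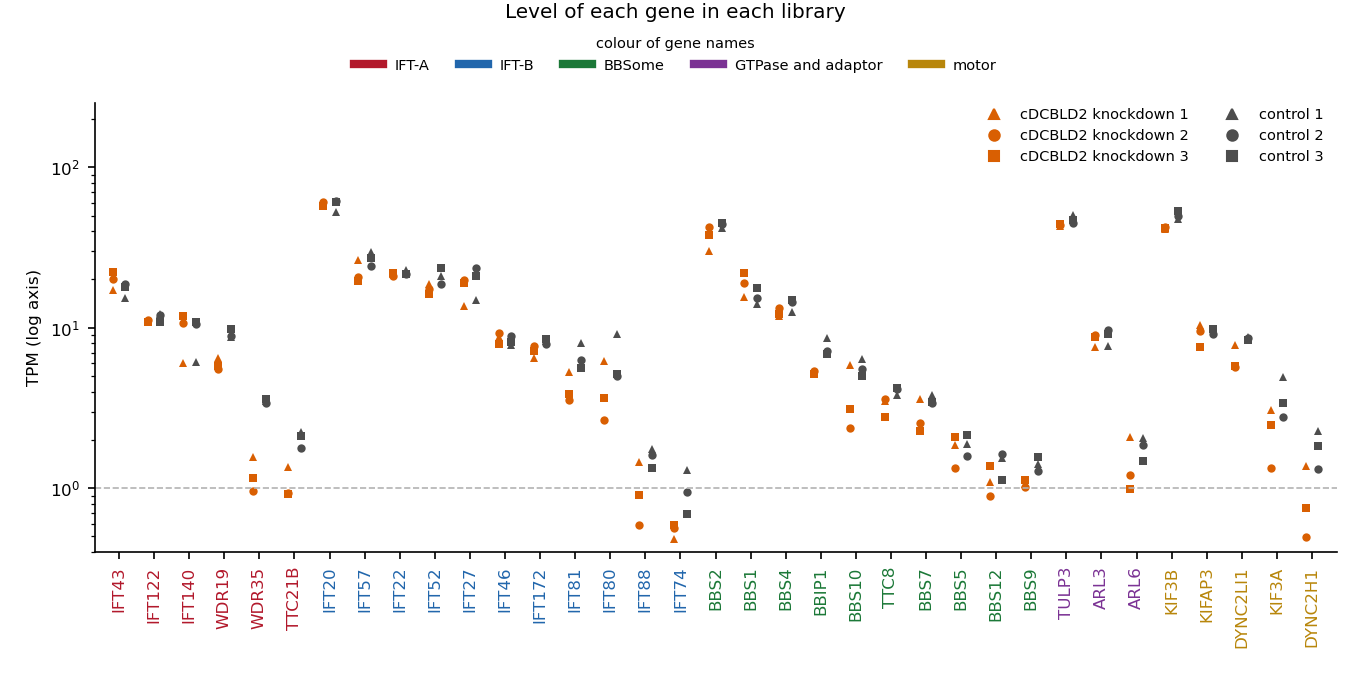
TPM of each of the 35 genes (log axis) in the 3 cDCBLD2 knockdown and 3 control libraries, by complex and, within it, from high to low mean level. Marker shapes are replicate numbers and the dashed line is 1 TPM. Genes of 1 complex differ in level by far more than the groups do, and WDR35 has its 3 knockdown values, 0.96 to 1.58 TPM, well under its 3 control values, 3.41 to 3.58 TPM.

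Within each complex the transcripts were far from equal in deposited TPM. Levels of different genes depend on the length assumed for each in the TPM, which was not checked here. BBS9 at 1.24 TPM had a mean of 103.8 recovered reads, and BBS12 at 1.28 TPM had 36. The transcripts used here for these genes have 4027 and 3431 bases, and recovered reads are lower bounds. The IFT-A genes ran from TTC21B at 1.56 TPM to IFT43 at 18.6 TPM. The IFT-B genes ran from IFT74 at 0.763 TPM to IFT20 at 58.4 TPM, a ratio of 76.5. BBS9 at 1.24 TPM and BBS2 at 40.4 TPM, both core subunits of the BBSome, marked its limits. Among the motors, KIF3B, a kinesin-2 motor subunit, stood at 46.0 TPM and its partner KIF3A at 2.99 TPM, and DYNC2H1, the dynein-2 heavy chain, stood lowest at 1.34 TPM. ARL6, the GTPase that recruits the BBSome to membranes, stood at 1.62 TPM, ARL3, the GTPase that releases lipid-modified cargo in the cilium, at 8.65 TPM, and TULP3 at 45.6 TPM. TULP3 shares exons on the same strand with RHNO1, so its reads could be shared in the counting.

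IFT20 is an IFT-B subunit that also works at the Golgi, and it was the highest of the 35 genes. It lies at chr17:28328325-28335489 on the minus strand. IFT20 measured 57.3, 60.5 and 57.4 TPM in knockdown replicates 1 to 3 and 53.0, 61.5 and 60.9 TPM in the controls. The groups overlapped, and its log2 fold change was 0.00 ± 0.08 (SE; limma adjusted p = 0.994). IFT74, an IFT-B subunit that forms a pair with IFT81, was the lowest and lies at chr9:26947039-27062930 on the plus strand. It measured 0.483, 0.563 and 0.593 TPM with knockdown and 1.30, 0.949 and 0.692 TPM in the controls, from 29 to 76 reads. The IFT74 groups did not overlap, but the gene was under the level limit for the test.

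**Figure D2:**
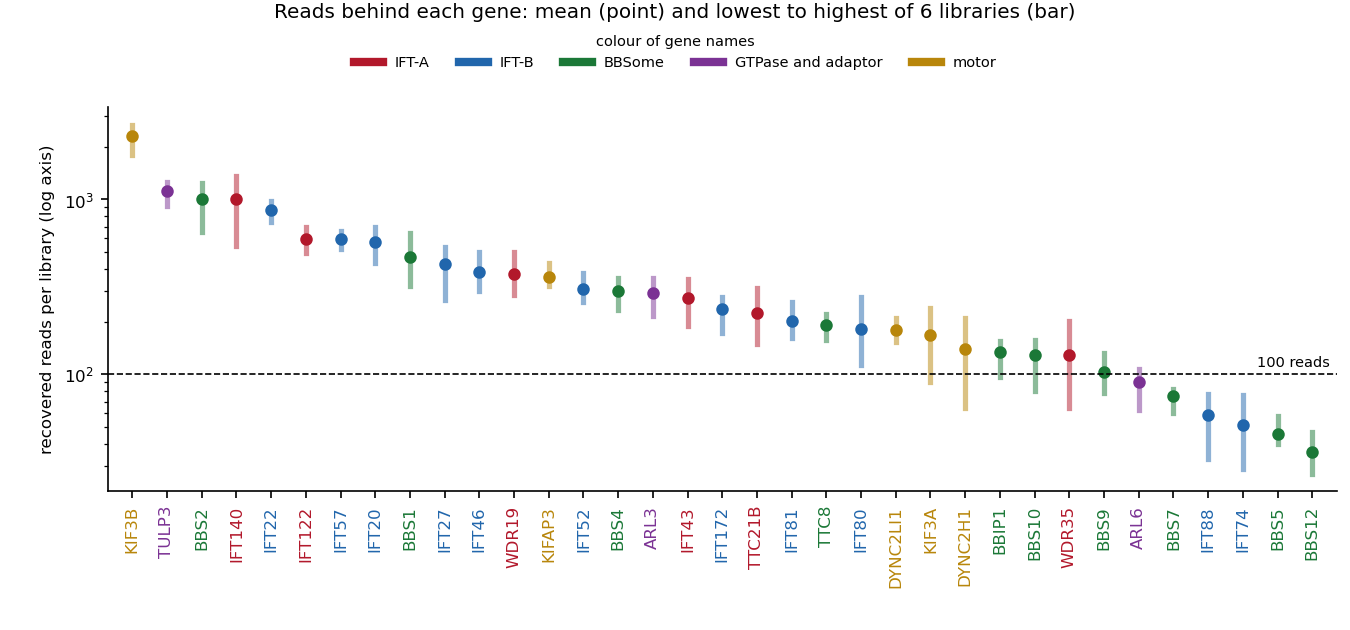
Recovered reads per library for each of the 35 genes (log axis), with the mean as a point and the lowest to the highest of the 6 libraries as a bar, colored by complex. The dashed line is the limit of 100 reads. Means run from 36.0 reads for BBS12 to 2305 for KIF3B, and 6 genes lie under the line.

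WDR35 had the lowest fold change of the 34 genes of the group that entered the fit, those averaging 1 TPM or more. It encodes an IFT-A subunit and lies at chr2:19910260-19990131 on the minus strand of GRCh38. WDR35 measured 1.58, 0.964 and 1.15 TPM in knockdown replicates 1 to 3 and 3.51, 3.41 and 3.58 TPM in the controls. Every knockdown value was under every control value. The means were 1.23 ± 0.31 TPM with knockdown and 3.50 ± 0.08 TPM in the controls (SD, n = 3 each), a ratio of 2.85, from 64 to 202 reads. On the scale of log2(TPM + 1), which understates the change of low genes, the difference was -1.02 ± 0.14 (SE), rank 111 from the lowest of the 13980 genes tested. These values were used to choose the gene, so they carry no test. The difference was -0.62 after the trend with GC content was taken out of each library, as described below, and between -1.13 and -0.94 when any 1 library was left out.

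None of the other 33 genes tested passed an adjusted p of 0.05 in the comparison of the groups. On the scale of log2(TPM + 1), on which changes of low genes are understated, none reached 1 in size. Log2 fold changes of single genes below are on this scale unless another setting is named. In mean TPM, the ratio of controls to knockdown was 2.07 for DYNC2H1 and 1.91 for TTC21B. The test was limma's moderated test on log2(TPM + 1), run on every gene averaging 1 TPM or more, 13980 in all, with Benjamini-Hochberg adjustment over all of them. Over all genes, 0.629% were called lower and 0.250% higher with knockdown, 88 and 35 genes, or 62 and 59 with upper-quartile scaling of the libraries. At an unadjusted p under 0.05 there were 7 of the 33 genes lower and 0 higher, against 19.4% of all genes lower and 6.78% higher. Without knockdown replicate 1, 8 of the 33 were called lower and 0 higher, against 19.8% of all genes lower and 4.64% higher. Without any other single library 0 of the 33 and 0 of all genes were called by limma in either direction, with 2161 to 2803 of all genes at an unadjusted p under 0.05. A test by limma-voom on the recovered reads called 1 of the 33, TTC21B, lower, against 1.72% of all genes lower and 1.29% higher.

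Fold changes leaned to lower values in knockdown cells across the group. They were negative for 28 of the 33 genes and positive for 5, from -0.60 to 0.24, with a median of -0.23 against -0.08 over all genes tested. Knockdown and control libraries did not overlap for 11 of the 33 genes with knockdown lower, or 33.3%, against 22.3% of all genes. They did not overlap for 0 of the 33 with knockdown higher, against 9.58% of all genes. Within same-numbered libraries, 23 of the 33 genes were lower with knockdown in all 3 pairs and 2, BBS1 and IFT43, were higher in all 3. Counts of signs and of pairs, here and below, are given without their share over all genes. The median of all genes was negative too, and whether these counts set the group apart was not tested.

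Replicate 1 stood apart from replicates 2 and 3 in both groups. Of the 33 genes, 12 were highest in replicate 1 within the knockdown group and within the control group alike, and 9 were lowest in it in both. IFT80, an IFT-B subunit, measured 6.23, 2.67 and 3.67 TPM with knockdown and 9.15, 5.02 and 5.12 TPM in the controls. IFT140, an IFT-A subunit, showed the opposite order, as given below. Same-numbered libraries deviated together in the check described under the processing, mostly through replicate 1. Each result is therefore also given with the replicate number as a block.

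With the replicate block, 10 of the 33 genes were called lower and 1 higher. Over all genes the same fit called 25.0% lower and 9.94% higher, so the share of the 33 called lower, 30.3%, was near that of the whole table. The 10 genes lower were WDR19 and TTC21B of IFT-A, IFT57, IFT80 and IFT81 of IFT-B, BBIP1 of the BBSome, and the motor genes DYNC2H1, DYNC2LI1, KIF3A and KIF3B. The gene higher was BBS1.

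**Figure D3:**
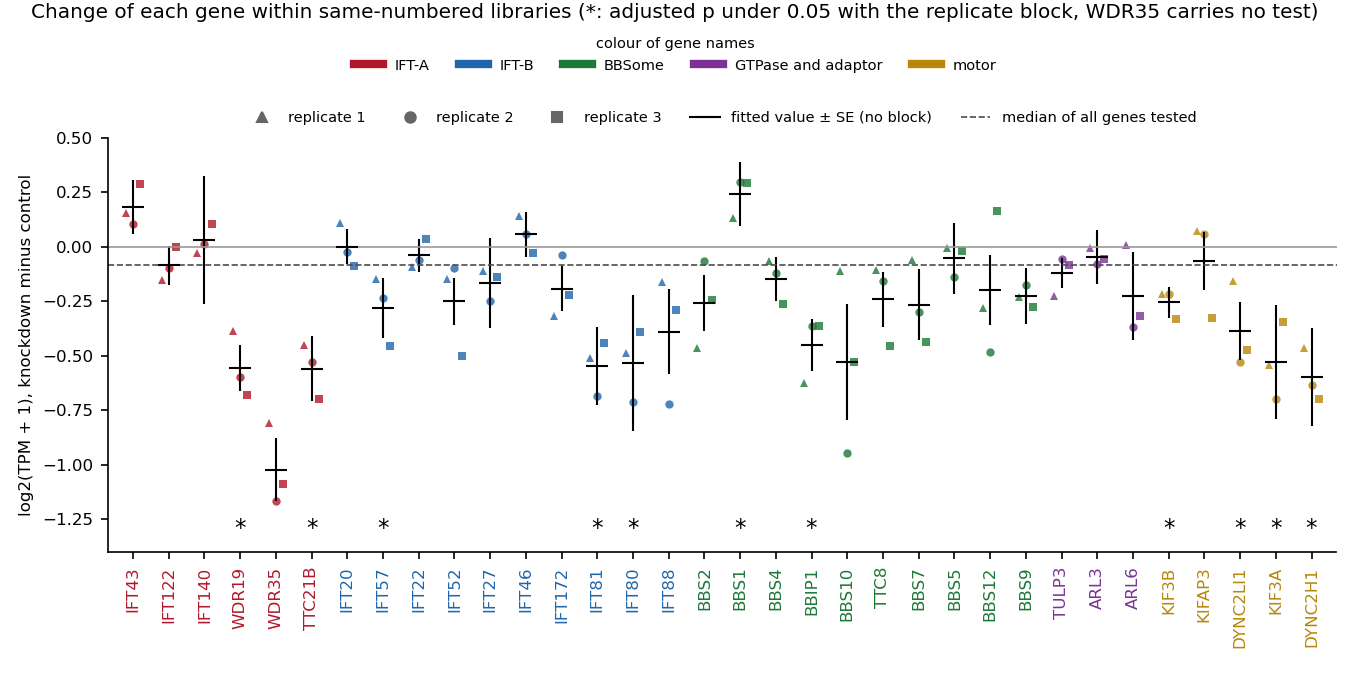
Difference in log2(TPM + 1), knockdown minus control, for the 34 genes averaging 1 TPM or more: colored markers are the 3 same-numbered pairs, black bars are the fitted value ± SE without the block, and the dashed line is the median of all genes tested, -0.08. Stars mark the 11 genes with an adjusted p under 0.05 with the replicate block. Most genes lie under the dashed line and WDR35, whose values chose it and carry no test, lies lowest at -1.02.

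The IFT-A complex was divided. WDR19 and TTC21B were lower with knockdown in every pair, IFT122 and IFT140 lay near 0, and IFT43 lay above 0. WDR19, a subunit of the IFT-A core at chr4:39182404-39285810 on the plus strand, measured 6.45, 5.54 and 5.78 TPM with knockdown and 8.75, 8.90 and 9.85 TPM in the controls. The groups did not overlap, with means of 5.93 ± 0.47 and 9.17 ± 0.60 TPM (SD, n = 3 each). Its log2 fold change was -0.55 ± 0.11 (SE), with a limma adjusted p of 0.0620, the lowest of the 33 genes, and of 0.0114 with the block. TTC21B, a subunit of the IFT-A periphery at chr2:165857475-165953843 on the minus strand, measured 1.36, 0.930 and 0.921 TPM with knockdown and 2.23, 1.78 and 2.11 TPM in the controls. These groups did not overlap either. Its log2 fold change came to -0.56 ± 0.15 (limma adjusted p = 0.0941 without and 0.0258 with the block). With the GC trend removed, as described below, TTC21B was at -0.16 (limma adjusted p = 0.335 with the block).

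The remaining IFT-A subunits had overlapping groups. IFT122, at chr3:129440036-129520507 on the plus strand, measured 10.9, 11.2 and 10.9 TPM with knockdown and 12.2, 12.1 and 10.9 TPM in the controls. IFT140, at chr16:1510427-1612110 on the minus strand, measured 6.01, 10.6 and 11.8 TPM with knockdown and 6.15, 10.5 and 10.9 TPM in the controls. Both are core subunits, and in IFT140 the low replicate 1 of each group set a spread far wider than the difference between the groups. Their log2 fold changes were -0.08 ± 0.09 and 0.03 ± 0.29, with limma adjusted p of 0.584 and 0.957. IFT43, a small subunit at chr14:75902136-76084585 on the plus strand, measured 17.3, 20.2 and 22.2 TPM with knockdown and 15.4, 18.7 and 18.0 TPM in the controls. It was higher in all 3 pairs, with a log2 fold change of 0.18 ± 0.12 (limma adjusted p = 0.381, and 0.0864 with the block). IFT43 shares exons on the same strand with TTLL5, and IFT140 with a noncoding gene, so reads of these genes could be shared in the counting.

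Of the 10 IFT-B genes tested, 8 had negative fold changes, with a median of -0.22. IFT81, which binds tubulin together with IFT74, ranged from 3.56 to 5.31 TPM with knockdown and from 5.61 to 7.99 TPM in the controls. Its groups did not overlap, and its log2 fold change came to -0.55 ± 0.18 (limma adjusted p = 0.129 without and 0.0129 with the block). IFT80, with the values given above, had overlapping groups and a log2 fold change of -0.53 ± 0.31 (limma adjusted p = 0.321, and 0.0167 with the block). IFT57, a peripheral subunit, ranged from 19.4 to 26.6 TPM with knockdown and from 24.4 to 29.6 TPM in the controls. Its log2 fold change came to -0.28 ± 0.14 (limma adjusted p = 0.249 without and 0.0413 with the block), and turned to 0.08 with the GC trend removed (adjusted p = 0.359 with the block), as described below. The other 7 lay between -0.39 for IFT88, one of the genes under 100 reads, and 0.06 for IFT46. IFT52 and IFT172 among them had groups that did not overlap, at -0.25 ± 0.11 and -0.19 ± 0.10, and IFT20, IFT22, IFT27 and IFT46 lay between -0.17 and 0.06. IFT80 also shares its exons with a separate row of the table, the readthrough transcript TRIM59-IFT80, which ranged from 2.31 to 5.33 TPM with knockdown and from 4.29 to 7.51 TPM in the controls, so the level of either row is uncertain.

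BBSome genes had a median of -0.23, with 9 of 10 below 0. BBS1, the subunit that binds ARL6 and lies at chr11:66510606-66533627 on the plus strand, was the exception. BBS1 shares exons on the same strand with the gene AP002748.4, so reads could be shared in the counting. BBS1 measured 15.5, 19.1 and 21.9 TPM with knockdown and 14.0, 15.3 and 17.6 TPM in the controls. Its groups overlapped, each knockdown library was above its same-numbered control, and its log2 fold change came to 0.24 ± 0.15 (limma adjusted p = 0.340 without and 0.0432 with the block). BBIP1, the smallest BBSome subunit, ranged from 5.14 to 5.38 TPM with knockdown and from 6.89 to 8.69 TPM in the controls. Its groups did not overlap, and its log2 fold change came to -0.45 ± 0.12 (limma adjusted p = 0.0904 without and 0.0209 with the block). With the GC trend removed, BBIP1 was at -0.0099 (limma adjusted p = 0.961 with the block).

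The other 8 BBSome genes passed the test neither with nor without the block. BBS10, one of the chaperonin-like proteins that assemble the BBSome, had the lowest value of them, -0.53 ± 0.27, with knockdown libraries from 2.38 to 5.86 TPM and controls from 4.97 to 6.40 TPM. It was called in none of these fits (limma adjusted p = 0.258, and 0.0642 with the block). Without knockdown replicate 1 its log2 fold change was -0.82, with a limma adjusted p of 0.0206, where 19.8% of all genes were called lower. With the GC trend removed, BBS10 was at -0.089 (limma adjusted p = 0.619 with the block). BBS9 and TTC8 had groups that did not overlap, at -0.23 ± 0.13 and -0.24 ± 0.13. The remaining 5, BBS2, BBS4, BBS5, BBS7 and the chaperonin-like BBS12, lay between -0.27 and -0.05.

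All 5 motor genes had negative fold changes, with a median of -0.39, and 4 were called lower with the block, against 25.0% of all genes. Their median was -0.098 with the GC trend removed, and with the block 0 were lower and 1, KIFAP3, higher. DYNC2H1, the heavy chain that drives return transport, lies at chr11:103109410-103479863 on the plus strand and had the largest fold change in size of the 33 genes. DYNC2H1 measured 1.37, 0.495 and 0.749 TPM with knockdown and 2.26, 1.32 and 1.84 TPM in the controls. The groups just overlapped, through replicate 1 with knockdown and replicate 2 of the controls. The difference was -0.60 ± 0.22 in log2(TPM + 1) (limma adjusted p = 0.160 without and 0.0235 with the block). The ratio of mean TPM, controls to knockdown, was 2.07. DYNC2LI1, the light intermediate chain of the same motor, ranged from 5.68 to 7.77 TPM with knockdown and from 8.41 to 8.77 TPM in the controls. Its groups did not overlap, and its log2 fold change came to -0.39 ± 0.13 (limma adjusted p = 0.141 without and 0.0392 with the block). It turned to 0.04 with the GC trend removed (adjusted p = 0.683 with the block).

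The kinesin-2 genes gave unequal changes. KIF3B had groups that did not overlap, 41.1 to 42.4 TPM with knockdown and 47.9 to 53.2 TPM in the controls, and a log2 fold change of -0.25 ± 0.07 (limma adjusted p = 0.0967, and 0.0177 with the block). KIF3A ranged from 1.33 to 3.06 TPM with knockdown and from 2.78 to 4.91 TPM in the controls, with overlap, and its log2 fold change came to -0.53 ± 0.26 (limma adjusted p = 0.249 without and 0.0246 with the block). KIFAP3, the protein that links the kinesin-2 motors to cargo, had a log2 fold change of -0.06 ± 0.13 (limma adjusted p = 0.785, and 0.671 with the block). The adaptor and GTPase genes TULP3, ARL3 and ARL6 had log2 fold changes of -0.12 ± 0.07, -0.05 ± 0.12 and -0.22 ± 0.20, and none was called with or without the block.

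Fold changes in the group followed the GC content of the transcripts. The median GC content of the 35 genes was 42.6%, from 34.9% for ARL6 to 59.7% for IFT140, against 49.5% over all genes tested. Across the 33 genes tested, WDR35 left out, GC content and log2 fold change had a Pearson r of 0.68 and a Spearman rho of 0.68. Over 13160 tested genes with a GC value, rho was 0.64. These are correlations across genes of the same 6 libraries and the genes are not independent, so they are given as a description.

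Set beside genes of like GC content, the group was close to the rest of the table. Of the 33 genes, 18 had a transcript in the lowest GC tertile of all tested genes, up to 44.8%, and their median log2 fold change was -0.39 against -0.35 over the 4387 genes of that tertile. The 12 genes of the middle tertile had a median of -0.07 against -0.08. The 3 genes of the highest tertile, BBS1, IFT27 and IFT140, had a median of 0.03 against 0.09. Of the 10 genes called lower with the block, 9 lay in the lowest tertile and KIF3B in the middle one.

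**Figure D4:**
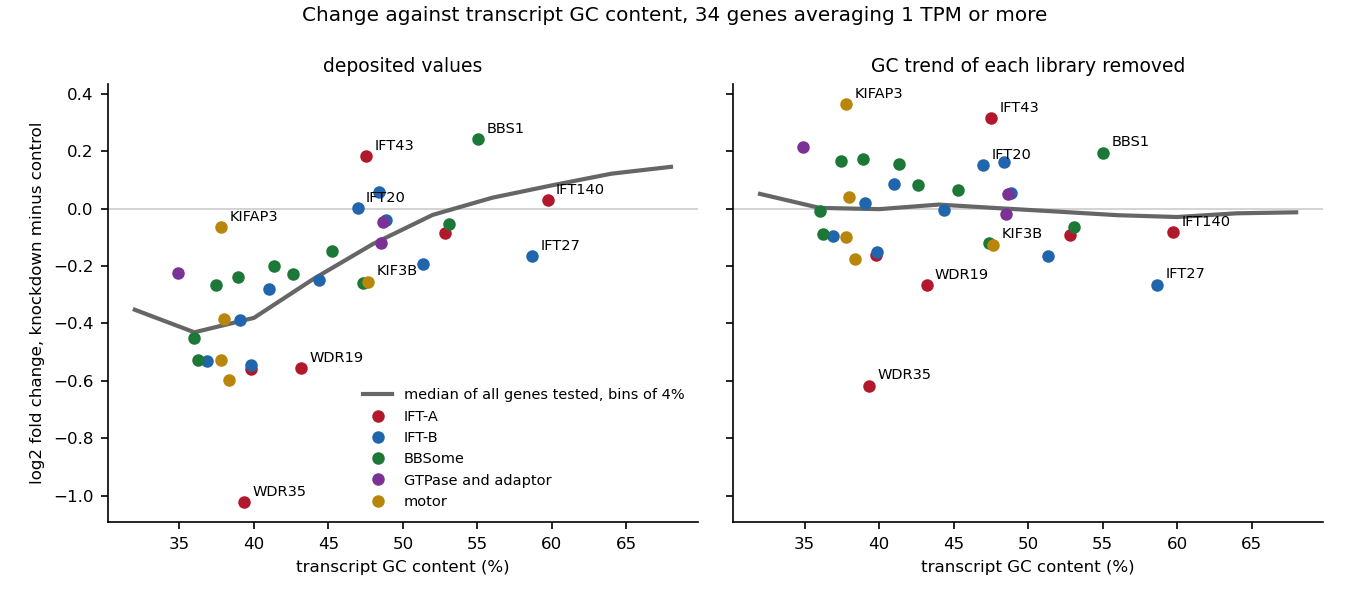
Log2 fold change (knockdown minus control) against transcript GC content for the 34 genes averaging 1 TPM or more, from the deposited values at left and with the GC trend of every library taken out at right, colored by complex. The gray line is the median of all tested genes in bins of 4% GC. At left the genes follow the line, with WDR35 far below it, and at right the other 33 scatter on both sides of 0, between -0.27 and 0.36, with WDR35 at -0.62.

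With the GC trend of every library taken out of the log2 values, the median of the 33 genes was -0.0035, with 17 below 0 and 16 above. Without the block none of the 33 was called in that fit, against 0.0152% of all genes lower and 0.0228% higher, at a lowest limma adjusted p of 0.187, and 2 had an unadjusted p under 0.05. With the block, 2 genes were called lower and 2 higher, 6.06% in each direction, against 13.0% and 11.3% of all genes. WDR19 remained among the genes lower, at -0.27 with a limma adjusted p of 0.0443. IFT27, a small GTPase of IFT-B, was also lower, at -0.26 with an adjusted p of 0.0280. The genes higher were IFT43, at 0.32 with an adjusted p of 0.0278, and KIFAP3, at 0.36 with an adjusted p of 0.0462. BBS1 was at 0.19 with an adjusted p of 0.0651, and the other 9 genes called lower by the block alone had an adjusted p of 0.0840 or more.

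Other genes of the ciliary pathway were taken from 8 lists, 117 genes of which 87 were tested. Without the block none of the 87 was called by limma, with 29 at an unadjusted p under 0.05. With the block, 30 were called lower and 5 higher, or 34.5% and 5.75%, against 25.0% and 9.94% of all genes. With the GC trend removed as well, 14 were lower and 4 higher, against 13.0% and 11.3% of all genes. The median log2 fold change of the 87 was -0.17, and -0.09 with the GC trend removed.

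The genes nearest to the group were 15 further genes of intraflagellar transport, the BBSome and the motors, of which 14 were tested. With the block 3 were lower and 1 higher, against 25.0% and 9.94% of all genes, and the median was -0.17. With the GC trend removed as well, 2 were lower and 1 higher, against 13.0% and 11.3%, and the median was 0.0023. CLUAP1 and TTC26, both IFT-B subunits, changed most. CLUAP1 measured 4.59, 5.08 and 4.77 TPM with knockdown and 8.88, 7.66 and 7.65 TPM in the controls, and TTC26 measured 5.00, 4.87 and 5.05 TPM with knockdown and 8.73, 7.61 and 7.84 TPM in the controls. In both genes the groups were well apart. Their log2 fold changes were -0.64 ± 0.11 and -0.60 ± 0.10, each with a limma adjusted p of 0.0544, or 0.00949 and 0.00832 with the block. After removal of the GC trend, CLUAP1 was at -0.61 with an adjusted p of 0.0118 with the block, and TTC26 at -0.21 with 0.183.

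Genes of the cilium's base and gate had negative medians, which came closer to 0 with the GC trend removed. Of 15 basal body and cilium initiation genes tested, 9 were lower and 1 higher with the block, against 25.0% and 9.94% of all genes. In the fit with the GC trend removed as well, 2 were lower and 0 higher, against 13.0% and 11.3%. Their median was -0.52, and -0.19 with the GC trend removed. CEP120, a centriole protein, had a log2 fold change of -0.94 ± 0.25 and CEP97, which with its partner CCP110 holds back cilium growth, had -0.71 ± 0.25 (limma adjusted p = 0.00647 and 0.0108 with the block). In that fit CEP120 was at -0.55 with an adjusted p of 0.0173 and CEP97 at -0.28 with 0.1299. Of 20 transition zone genes tested, 7 were lower and 0 higher with the block, and 2 and 0 with the GC trend removed as well. Their median was -0.17, and -0.045 with the GC trend removed. AHI1 and CEP290, proteins of the gate between cilium and cell body, had log2 fold changes of -0.82 ± 0.26 and -0.82 ± 0.25 (limma adjusted p = 0.0116 and 0.0144 with the block). Both calls were lost with the GC trend removed as well, at -0.40 and -0.38 with adjusted p of 0.0541 and 0.0549.

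Among 8 cilium resorption genes, 5 were lower and 1 higher with the block, against 25.0% and 9.94% of all genes. The counts were the same with the GC trend removed as well, against 13.0% and 11.3%. NEK2, a kinase of centrosome separation and mitosis, measured 14.9, 10.4 and 11.3 TPM with knockdown and 33.6, 20.7 and 23.6 TPM in the controls. The groups did not overlap, and its log2 fold change came to -1.02 ± 0.21 (limma adjusted p = 0.0655 without and 0.00436 with the block). KIF2A, a kinesin that takes microtubules apart, had a log2 fold change of -0.69 ± 0.24 (limma adjusted p = 0.00895 with the block). With the GC trend removed as well, NEK2 and KIF2A had adjusted p of 0.00855 and 0.0245. The list also holds AURKA and PLK1, which like NEK2 act in mitosis in all dividing cells.

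Of 13 tested ciliary GTPase and lipid cargo genes, 4 were lower and 1 higher with the block, against 25.0% and 9.94% of all genes. With the GC trend removed as well, 1 was lower and 2 were higher, against 13.0% and 11.3%. RAB3IP, which activates RAB8A at the cilium's base, had a log2 fold change of -0.46 ± 0.16 (limma adjusted p = 0.0288 with the block), and -0.086 with the GC trend removed as well (adjusted p = 0.516). The list of ciliary transcription factors took in the RFX factors by family, whether or not each acts in ciliated cells. Of the 4 genes tested from it, RFX5 and RFX7 were lower with the block, at -0.33 ± 0.08 and -0.78 ± 0.20 (limma adjusted p = 0.0130 and 0.00933, and 0.0190 and 0.0318 with the GC trend removed as well). RFX1 and RFX2 were not called, at 0.16 ± 0.11 and 0.01 ± 0.21 (limma adjusted p = 0.189 and 0.944 with the block). Of 10 Hedgehog pathway genes tested, 1 was higher with the block, BOC, a coreceptor, at 0.44 ± 0.12 (limma adjusted p = 0.0442), and none was lower. None of the 10 was called with the GC trend removed as well, with BOC at an adjusted p of 0.0763. None of 3 motile cilium genes tested was called.

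Cell type markers were checked in the same libraries. Keratins KRT8 and KRT18 and the liver factor HNF4A were expressed in all libraries, HNF4A at 22.9 to 31.3 TPM. Mature hepatocyte products were low, with ALB, APOA1 and FGB at most 1.58, 0.774 and 0.124 TPM. SERPINA1 was at 1.30 to 3.00 TPM and APOB at 0.902 to 4.26 TPM. TTR was at 1.30 to 1.64 TPM with knockdown and 0.202 to 0.241 TPM in the controls, from 1 to 9 reads. The summed level of the 11 hepatocyte and liver cancer markers was 5840 to 7009 TPM with knockdown and 4830 to 5649 TPM in the controls, without overlap. Nearly all of that sum was KRT8, at 2999 to 4413 TPM, and KRT18, at 1800 to 2555 TPM over the 6 libraries. Over all genes the fit with the block called 25.0% lower and 9.94% higher, and 13.0% and 11.3% with the GC trend removed as well. Of the 6 markers tested, KRT8, KRT18 and HNF4A were higher with the block and APOB was lower, at -0.80. With the GC trend removed as well these calls held, and AFP was higher too, at 0.67 (limma adjusted p = 0.0167). The 6 fibroblast markers summed to 32.5 to 77.0 and 30.3 to 43.9 TPM, most of it LUM, which was at 26.7 to 59.1 TPM in all libraries, while DCN was at most 0.287 TPM. Of the 3 tested, COL1A1 and COL3A1 were higher with the block, with log2 fold changes of 1.06 ± 0.45 and 1.05 ± 0.21. With the GC trend removed as well LUM was higher too. The 4 endothelial markers summed to 4.54 to 5.19 and 3.75 to 5.79 TPM, most of it PECAM1 at 3.63 to 5.64 TPM, with CDH5 at most 0.111 TPM. Of the 5 immune markers, CD68 alone was tested and was not called, at 89.99 to 125.1 TPM, whereas PTPRC was at most 0.411 TPM and CD3E was at 0 in all libraries. The part of these differences in the values of the transport genes was not tested.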

How the data were processed

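PolyA-Seq of 3 cDCBLD2 knockdown and 3 control libraries of HCCLM3-SR cells was analyzed, with groups and replicate numbers taken from the labels. The authors deposited TPM per gene, and the submitters' processing notes name fastp 0.20.1, HISAT2 2.1.0, StringTie 2.0 and hg38. How reads on overlapping genes or either strand were counted is not given in the sources used here, and exons of 16 of the 35 genes overlap those of another annotated gene, on the same strand in 6.

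Genes averaging 1 TPM or more, 13980 in all, were tested on log2(TPM + 1) by limma 3.58.1 with a mean-variance trend in R 4.3.3, and p-values were adjusted over these genes by Benjamini-Hochberg, with a threshold of 0.05. The design had no block, since the study names none. Same-numbered libraries deviated together from their group means (correlations of 0.560, 0.343 and 0.362 over genes), but the labels state no pairing. Differently numbered libraries gave -0.450 to -0.376 where one was replicate 1, and 0.247 and 0.2145 between replicates 2 and 3. The check therefore mostly sets replicate 1 apart, and a pairing within replicates 2 and 3 is less clear. Values from a fit with the replicate block stand next to those without it. What the numbers stand for is not stated. A single value cannot reach p under 0.1 in an exact permutation test of 3 against 3 libraries.

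Reads were recovered from TPM ratios for 17285 genes above 0 in all libraries; all came out whole within 0.002 reads, and 0% did when library factors were moved at random. They are lower bounds, and a factor common to a gene's libraries is lost. Recovery and fits were tested on simulated data.

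The 35 genes and all lists were chosen with earlier results of these data known. All 35 were to be accounted for, with values in every library for WDR35, the other IFT-A subunits, the called genes among the 3 with the largest fold change in each direction, and the highest and lowest genes; from the lists, the 2 largest changes called with the block were named. The values of 1 list gene are not reported here. Values of BBS10, IFT80 and list genes beyond that rule were chosen after they were seen. Transcript GC content came from the GENCODE release 29 transcripts (GRCh38), which gave a value for 94.1% of genes tested; GC and length trends were removed per library by loess (span 0.5). Alternatives were another scaling, pseudocount (0.1 TPM), filters, protein-coding genes only, limma-voom on recovered reads (genes reaching 10 reads in 3 libraries), and leaving out libraries; the scaling with the block and leaving out replicate 1 of both groups were added after seeing the data. Python 3.11.15, pandas 2.3.3 and matplotlib 3.10.9 were used for tables and plots.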

Additional observations from a re-analysis of the deposited data

How the results depend on the processing

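Of 680 values of single genes under 20 alternatives, 617 kept their direction, and 63 values of 17 genes turned sign, among them IFT57 and DYNC2LI1, which were called lower with the replicate block. Depth limits BBS12, BBS5, IFT74, IFT88, BBS7 and ARL6 most. The numbers of the 33 genes called lower and higher, 0 and 0 without a block, were 10 and 1 with the replicate block, 8 and 2 with upper-quartile scaling and the block, 2 and 2 with the GC trend removed and the block, 5 and 1 with the length trend removed and the block, and 8 and 2 with limma-voom and the block. Without a block, limma-voom gave 1 and 0 and protein-coding genes only gave 1 and 0. Leaving out 1 library gave 0 to 8 lower and 0 higher, the 8 without knockdown replicate 1, and leaving out replicate 1 of both groups gave 10 lower. For the 87 other ciliary genes, 0 and 0 without a block, the counts were 30 and 5 with the replicate block, 25 and 6 with upper-quartile scaling and the block, 14 and 4 with the GC trend removed and the block, 21 and 10 with the length trend removed and the block, and 27 and 9 with limma-voom and the block. Without a block they were 2 and 3 with limma-voom, 0 and 3 with the length trend removed, 2 and 0 with protein-coding genes only, and 2 and 0 with at least 10 reads in every library. Leaving out 1 library gave 0 to 22 lower and 0 to 3 higher, and leaving out replicate 1 of both groups gave 28 and 4. The median of the 33 genes moved from -0.23 to -0.0035 with the GC trend removed and to -0.096 with the length trend removed, each with or without the block, and was -0.23 to -0.20 when 1 library was left out. With the GC trend removed, with or without the block, the genes that turned were IFT22 (0.054), IFT57 (0.084), IFT88 (0.020), IFT140 (-0.081), BBS4 (0.064), BBS7 (0.17), BBS9 (0.082), BBS12 (0.15), TTC8 (0.17), ARL3 (0.051), ARL6 (0.21), DYNC2LI1 (0.041) and KIFAP3 (0.36). With the length trend removed they were IFT20 (-0.0092), IFT122 (0.076), IFT172 (0.013), BBS5 (0.053), ARL3 (0.084) and KIFAP3 (0.080). Upper-quartile scaling turned IFT22 (0.030) and ARL3 (0.018). Limma-voom, without and with the block, turned IFT22 (0.061 and 0.062), IFT122 (0.012 and 0.011), BBS5 (0.0015 and 0.022), ARL3 (0.049 and 0.045) and KIFAP3 (0.023 and 0.029). Leaving out 1 library gave -0.067 to 0.039 for IFT20, -0.21 to 0.30 for IFT140, -0.14 to 0.064 for BBS5, -0.13 to 0.022 for ARL3 and -0.15 to 0.056 for KIFAP3, and without replicate 1 of both groups IFT20 was at -0.054. WDR35 lay between -1.46 and -0.62 and WDR19 between -0.64 and -0.27 over the 20 alternatives. Shares of all genes called lower and higher moved with these settings as well: with the block they were 25.0% and 9.94%, 19.4% and 14.6% with upper-quartile scaling, 13.0% and 11.3% with the GC trend removed, 17.2% and 18.1% with the length trend removed, and 20.5% and 17.5% with limma-voom. Without a block they were 1.72% and 1.29% with limma-voom, 2.44% and 0.899% with protein-coding genes only, 0.638% and 1.17% with the length trend removed, and 1.26% and 0.504% with at least 10 reads in every library. They were 19.8% and 4.64% without knockdown replicate 1 and 25.3% and 9.68% without replicate 1 of both groups. The causes of these shifts were not tested. All other values of single genes kept their direction.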

Other observations

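Hedgehog genes, motile cilium genes and RFX factors differed widely in level in these cells. SMO, the Hedgehog signal transducer that enters the cilium, was at most 0.0522 TPM, GLI3 at most 0.0306 TPM, and HHIP was at 0 in all libraries. GLI2 stood at 8.42 to 11.6 TPM, PTCH1, the Hedgehog receptor, at 5.00 to 8.53 TPM, and the ligand SHH at 2.15 to 2.60 TPM. FOXJ1, the regulator of motile cilia, was at most 0.132 TPM, and 11 of the 14 motile cilium genes were below 1 TPM on average. Of the RFX factors, RFX5 was the highest at 62.2 to 88.5 TPM, RFX1 stood at 10.2 to 13.6 TPM and RFX2 at 6.67 to 11.1 TPM, and RFX3 was at most 0.285 TPM. RFX2 and RFX3 both act in ciliated cells. These levels are descriptions, and their relation to the changes of the transport genes was not tested.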
